A study of Mus musculus with 2 samples.

Results

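The 10 genes described here encode enzymes of threonine breakdown, serine synthesis and the folate-bound one-carbon pool. They are *Tdh*, *Gcat*, *Gldc*, *Shmt1*, *Shmt2*, *Mthfd1*, *Mthfd2*, *Mthfd1l*, *Phgdh* and *Psat1*. The genes were chosen by name and were found as 11 of the 54146 gene rows, because *Gcat* has a pair of overlapping rows that were summed. All 10 were among the 9639 genes with at least 200 UMIs in ES cells. Single mouse ES cells were profiled by inDrop, which captures cells in droplets and marks each transcript with a unique molecular identifier (UMI). The study asked what loss of the RNA-binding protein LIN28A does to the transcriptome of pluripotent cells. There was 1 library of untreated wild-type ES cells and 1 of *Lin28a* knockout ES cells, both grown for 2 days on gelatin with mouse embryonic fibroblast (MEF) feeders in LIF/2i medium. The labels call both libraries ICM-derived ES cells. The study's methods and a supplementary legend together describe a transfected wild-type clone and a CRISPR/Cas9 knockout clone, so each genotype is 1 clone. The legend lists these clones beside un-transfected E14 ES cells, and the methods give E14 as the ES cell line unless another is named. Age, sex and passage of the cells are not given in the sources used here.

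Threonine dehydrogenase (*Tdh*) and glycine C-acetyltransferase (*Gcat*) split threonine into glycine and acetyl-CoA in mitochondria, a route on which mouse ES cells are known to depend. Glycine decarboxylase (*Gldc*) and the serine hydroxymethyltransferases (*Shmt1* in the cytosol, *Shmt2* in mitochondria) pass a carbon unit from glycine or serine to tetrahydrofolate. The *Mthfd* enzymes change the oxidation state of that unit or release it as formate, and it then serves purine, thymidylate and methionine synthesis. *Phgdh* and *Psat1* catalyse consecutive steps of serine synthesis from glucose.

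Before any filter there were 12079546 UMIs on 4329 wild-type barcodes and 10027710 UMIs on 6060 knockout barcodes. Barcodes with at least 500 UMIs and at most 20% mitochondrial UMIs were kept. Cells with at least 0.3% of their UMIs on *Col1a1*, *Col1a2* and *Col3a1* were set apart as feeder fibroblasts, which left 1808 wild-type ES cells (median 6112 UMIs) with 48 fibroblasts and 1599 knockout ES cells (median 5072 UMIs) with 23 fibroblasts. The collagen share just inside and just outside that limit was 0.304% and 0.266% for wild-type cells and 0.334% and 0.290% for knockout cells. All 10 ES cell markers were detected in the ES cells of both libraries, at 4857 and 4908 CPM together. The sum hides markers that moved apart, with *Sox2* at 165 and 93.4 CPM (ratio 0.568, 0.523 to 0.616), *Zfp42* at a ratio of 0.768, *Pou5f1* at 1.18 and *Esrrb* at 1.22. The 2-cell stage markers were at or near 0, with at most 26 UMIs for any of them in a library. *Lin28a* itself stood at 110.6 CPM in the wild-type (95% interval 104 to 117) and 36.9 CPM in the knockout ES cells (33.04 to 41.0), a ratio of 0.333 (0.295 to 0.376). An edited gene can still be transcribed, so RNA is a partial check of the label. Barcodes are numbered names in each table, so barcodes shared by the libraries could not be counted.

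Levels were summed UMIs over cells, divided by all UMIs of the same cells and scaled to CPM, the usual per-million unit. inDrop counts 3′ ends, so 1 UMI stands for 1 captured molecule whatever the gene's length, and CPM of different genes were compared per molecule. With 1 library per condition there is no replicate, so no test and no p-value is given. All intervals are exact Poisson or binomial (Clopper-Pearson) intervals at 95% and cover counting error only. Genotype and every other difference between the cultures cannot be told apart.

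Promoter windows of RefSeq on GRCm38.p6 were matched for 9 of the 10 genes, with none for *Tdh*. The windows from 100 bases before to 20 after the start are shown for *Gcat* and *Psat1*, whose levels ran in opposite directions between ES cells, and for *Shmt2*, which differed most between the libraries. Capitals mark CACGTG, the palindromic E-box, and *Psat1* has windows for 2 starts. They lie at chr15:79030774-79030893 on the plus strand, at chr19:15925040-15925159 and chr19:15924603-15924722 on the minus strand, and at chr10:127522425-127522544 on the minus strand.
Gcat: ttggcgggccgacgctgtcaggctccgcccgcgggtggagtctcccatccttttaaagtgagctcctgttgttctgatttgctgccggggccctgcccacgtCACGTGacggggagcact
Psat1, first start: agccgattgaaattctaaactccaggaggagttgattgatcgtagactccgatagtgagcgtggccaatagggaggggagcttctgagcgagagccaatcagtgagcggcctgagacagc
Psat1, other start: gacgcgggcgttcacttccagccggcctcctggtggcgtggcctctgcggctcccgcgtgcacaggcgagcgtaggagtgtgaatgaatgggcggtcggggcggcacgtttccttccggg
Shmt2: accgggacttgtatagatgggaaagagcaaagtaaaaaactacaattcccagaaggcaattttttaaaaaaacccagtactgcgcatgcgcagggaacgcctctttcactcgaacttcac

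Both strands of the longer windows, from 250 bases before to 50 after each start, were searched for a few short motifs. CACGTG was in 1 of the 10 windows of these genes, beginning at base 3 of the *Gcat* transcript, and in 7.15% of all 32851 windows. TGATGNAA, a form of the element bound by C/EBP and ATF4 heterodimers, was in 0 of the 10 windows and in 3.97% of all. TATAAA was in 1 of the 10, that of *Phgdh*, beginning at base -189 from the start, and in 13.6% of all. The windows of these genes had between 42.7% G or C for *Shmt2* and 66.7% for the other *Psat1* start, around a median of 52.7% over all windows. A match of letters is a description and names no factor at work.

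In ES cells *Tdh* was the most abundant of the 10 transcripts in both libraries, and no gene of the 10 differed by 1.5-fold between them when all ES cells were summed. Together the genes had 1539.7 CPM in wild-type (17256 UMIs) and 1586 CPM in knockout ES cells (14632 UMIs). The ratio was 1.03 (1.01 to 1.05) with scaling to total UMIs and fell to 0.986 with median-of-ratios scaling, so the small difference has no direction that holds under both. Of all genes with at least 200 UMIs, 6.87% were at least 1.5-fold higher and 7.88% at least 1.5-fold lower in the knockout library, and the median ratio over them was 1.02. The median over the 10 was 1.03.

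**Figure D1:**
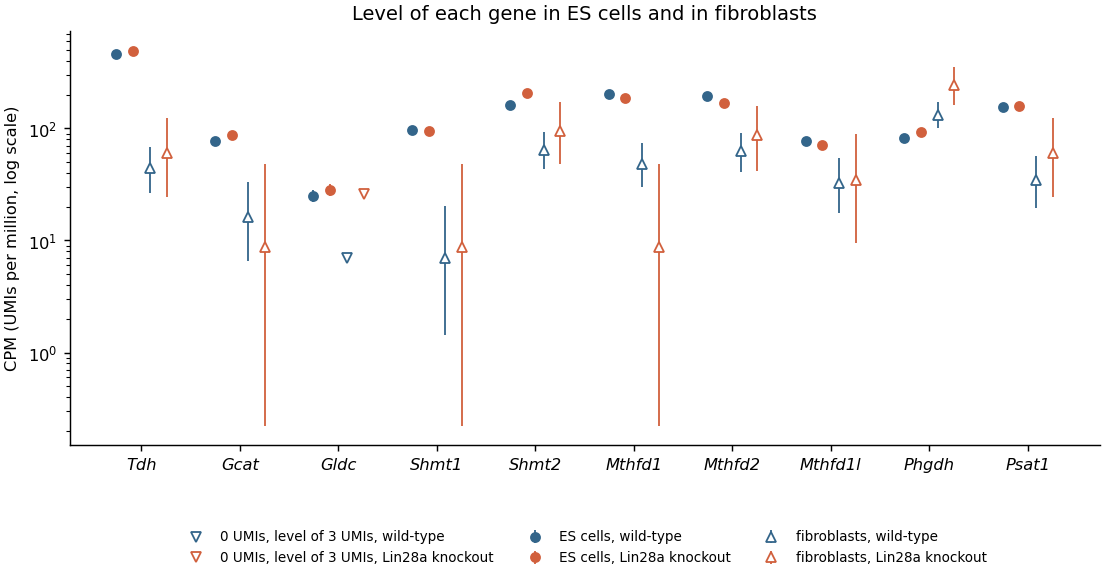
Level of each gene in CPM on a log axis, in ES cells (filled circles) and feeder fibroblasts (open upward triangles) of the wild-type (blue) and Lin28a knockout (orange) library, with exact 95% Poisson intervals. Downward triangles mark 0 UMIs and are drawn at the level of 3 UMIs. The ES cell points of the libraries lie close together for every gene, and fibroblast points are lower except for Phgdh. For Gldc and Mthfd1l in the knockout library that difference is within counting error.

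The threonine branch was led by *Tdh* (ENSMUSG00000021953.14, chromosome 14 from 63492347 to 63509092 of GRCm38, minus strand). It had 465 CPM (453 to 478) in wild-type and 487 CPM (473 to 501) in knockout ES cells, a ratio of 1.05 (1.01 to 1.09), and 1.001 with median-of-ratios scaling. It ranked at place 324 and 302 of all genes by CPM and made up 30.2% and 30.7% of the UMIs of the 10. *Gcat*, which acts on the product of TDH, was much lower, at 77.5 CPM (72.5 to 82.9) and 88.2 CPM (82.3 to 94.5). There were thus 6.001 *Tdh* UMIs per *Gcat* UMI in the wild-type (5.58 to 6.46) and 5.52 in the knockout library (5.12 to 5.95). The *Gcat* rows (ENSMUSG00000006378.15, chromosome 15 from 79030874 to 79038353, and ENSMUSG00000116378.1, from 79030901 to 79042531, both plus strand) overlap. Of the ES cell UMIs, 60 of 869 in wild-type and 89 of 814 in knockout cells were on the second row, and over all barcodes the files list 35 and 51 UMIs of the first row as ambiguous between genes. The *Gcat* ratio of 1.14 (1.03 to 1.254) is uncertain to that extent. In ES cells of 2000 to 5000 UMIs it was 1.62 (1.1999 to 2.19), from 92 UMIs in each library. Within ES cells of 5 to 10%, 10 to 15% and at least 15% ribosomal protein UMIs it was 1.03 (0.855 to 1.23), 1.11 (0.937 to 1.31) and 0.933 (0.790 to 1.10). The *Tdh* ratio was 1.03, 1.02 and 1.002 there, and every interval of both genes held 1. Cells of at least 15% were 11.8% of wild-type and 20.5% of knockout ES cells. Their part in the ratios was not tested.

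*Gldc*, the decarboxylase of the glycine cleavage system (ENSMUSG00000024827.9, chromosome 19 from 30098447 to 30175429, minus strand), was the least abundant of the 10. It had 25.1 CPM (22.2 to 28.2) in wild-type and 28.5 CPM (25.2 to 32.2) in knockout ES cells, and its ratio of 1.14 (0.957 to 1.35) is within counting error of 1. *Tdh* had 18.6 and 17.1 UMIs for each *Gldc* UMI. The other glycine cleavage genes had higher levels than *Gldc* in both libraries, though *Dld* was close to it in the knockout library (287 and 263 UMIs). The aminomethyltransferase *Amt* had 66.0 and 86.4 CPM (ratio 1.31, 1.18 to 1.45), the carrier protein *Gcsh* 95.7 and 101.2 CPM (1.06, 0.968 to 1.16), and the shared dehydrogenase *Dld* 37.3 and 31.1 CPM (0.834, 0.715 to 0.972).

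The serine synthesis genes stood close to each other between libraries. *Phgdh* (ENSMUSG00000053398.11, chromosome 3 from 98313170 to 98339990, minus strand), the first enzyme of the branch, had 81.9 CPM (76.7 to 87.4) and 93.4 CPM (87.3 to 99.9), a ratio of 1.14 (1.04 to 1.253), and 3.05 (1.30 to 8.74) from 6 and 47 UMIs in ES cells under 2000 UMIs. *Psat1* (ENSMUSG00000024640.9, chromosome 19 from 15904678 to 15947337, minus strand), the aminotransferase that follows, had 154 CPM (147 to 162) and 157 CPM (149 to 165), a ratio of 1.02 (0.950 to 1.09). *Psph*, which completes the branch and is not among the 10, had 61.2 and 60.8 CPM (ratio 0.994, 0.887 to 1.11). The *Psat1* ratio was not the same at every depth. It was 0.627 (0.363 to 1.11) in ES cells under 2000 UMIs and 0.495 (0.379 to 0.641) in those of 2000 to 5000. In those of 5000 to 10000 it was 0.924 (0.831 to 1.03) and in those of 10000 and over 1.30 (1.14 to 1.48). The share of cells with at least 15% ribosomal protein UMIs, in which *Psat1* was low in both libraries (described further on), also differed by depth. It was 6.77% of knockout and 2.40% of wild-type cells under 2000 UMIs, and 33.7% and 8.66% of those of 2000 to 5000. At 5000 to 10000 UMIs it was 30.7% and 13.2%, and at 10000 and over 13.8% and 22.0%. Its part in the change of ratio was not tested. Within ES cells of 5 to 10%, 10 to 15% and at least 15% ribosomal protein UMIs the *Psat1* ratio was 1.16 (1.06 to 1.27), 1.15 (1.02 to 1.29) and 0.998 (0.685 to 1.46). The *Phgdh* ratio was 1.08 (0.921 to 1.26), 1.12 (0.945 to 1.32) and 1.01 (0.846 to 1.21) in the same cells, with every interval holding 1.

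The hydroxymethyltransferases differed from each other. Mitochondrial *Shmt2* (ENSMUSG00000025403.5, chromosome 10 from 127517123 to 127522444, minus strand) had the largest ratio of the 10, with 162 CPM (155 to 170) in wild-type and 208 CPM (199 to 218) in knockout ES cells. This ratio of 1.28 (1.202 to 1.37) was at the 81.9th percentile of all genes. *Shmt1*, the cytosolic form (ENSMUSG00000020534.14, chromosome 11 from 60788104 to 60811718, minus strand), had 96.9 CPM (91.2 to 103) and 94.8 CPM (88.7 to 101.3), a ratio of 0.979 (0.894 to 1.07). There were 1.68 *Shmt2* UMIs per *Shmt1* UMI in the wild-type (1.55 to 1.81) and 2.20 in the knockout library (2.03 to 2.38), intervals that do not overlap. Within ES cells of 5 to 10%, 10 to 15% and at least 15% ribosomal protein UMIs the *Shmt2* ratio was 1.255, 1.247 and 1.18, with every interval above 1. By depth it ran from 1.10 (0.979 to 1.24) at 10000 UMIs and over to 2.03 (1.16 to 3.79) under 2000 UMIs.

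The *Mthfd* genes all had ratios just below 1, and that of *Mthfd1l* was within counting error of 1. *Mthfd1*, the cytosolic trifunctional enzyme (ENSMUSG00000021048.7, chromosome 12 from 76255298 to 76319803, plus strand), had 204 CPM (195 to 212) and 188 CPM (180 to 197), a ratio of 0.925 (0.869 to 0.985). *Mthfd2*, a mitochondrial dehydrogenase and cyclohydrolase (ENSMUSG00000005667.8, chromosome 6 from 83305691 to 83325908, minus strand), had 196 CPM (188 to 204) and 169 CPM (161 to 178), and its ratio of 0.864 (0.809 to 0.922) was the smallest of the 10. *Mthfd1l*, the mitochondrial formate-releasing enzyme (ENSMUSG00000040675.17, chromosome 10 from 3973118 to 4167081, plus strand), had 76.9 CPM (71.9 to 82.2) and 71.2 CPM (65.9 to 76.9), a ratio of 0.926 (0.835 to 1.03). All 3 ratios lay between 0.86 and 0.93, well within 1.5-fold. *Mthfd2* was lower in the knockout library at each ribosomal protein share from 5% up, with ratios of 0.900, 0.852 and 0.743. *Mthfd1l* did not keep 1 direction there, at 1.10 (0.962 to 1.26), 1.02 (0.847 to 1.22) and 0.679 (0.465 to 0.987). In ES cells of 2000 to 5000 UMIs it was at 0.670 (0.480 to 0.924).

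**Figure D2:**
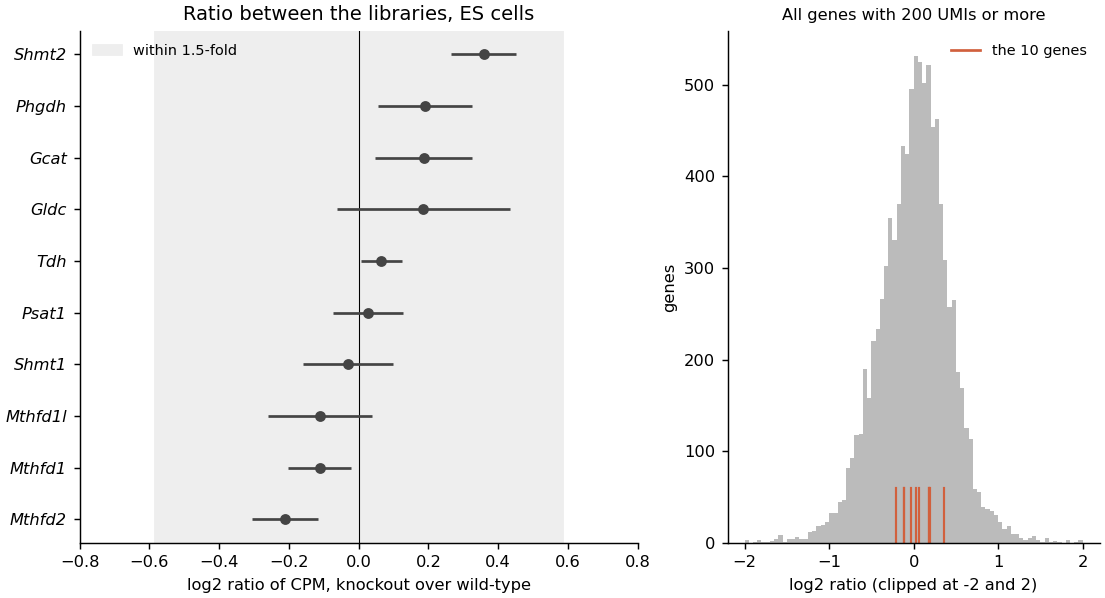
Left, log2 ratio of CPM (knockout over wild-type) in ES cells for each gene with its exact 95% interval. The grey band marks less than 1.5-fold and holds all 10, from -0.21 for Mthfd2 to 0.36 for Shmt2. Right, histogram of the same ratio over the 9639 genes with at least 200 UMIs, with the 10 genes as orange lines near its centre.

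The order of levels was *Tdh*, *Mthfd1*, *Mthfd2*, *Shmt2*, *Psat1*, *Shmt1*, *Phgdh*, *Gcat*, *Mthfd1l* and *Gldc* in wild-type ES cells. In the knockout library *Shmt2* stood ahead of *Mthfd1* and *Mthfd2*, and the other places were the same. Neighbours that did not differ beyond counting error in the wild-type library were *Mthfd1* and *Mthfd2*, *Shmt2* and *Psat1*, *Phgdh* and *Gcat*, and *Gcat* and *Mthfd1l*. In the knockout library they were *Shmt1* and *Phgdh*, and *Phgdh* and *Gcat*.

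A *Tdh* UMI was found in 82.3% of wild-type (80.5 to 84.0) and 70.0% of knockout ES cells (67.7 to 72.3), and in 19.6% and 19.9% when every cell was taken at 500 UMIs. The unthinned gap thus went with the lower depth of the knockout cells. At 500 UMIs the share ran from 1.16% for *Gldc* to 9.23% for *Mthfd1* among the other genes of the wild-type library. For *Shmt2* it was 7.05% in wild-type and 9.11% in knockout cells, and for *Psat1* 7.25% and 5.64%, although the *Psat1* CPM was nearly equal. At least 1 UMI of any of the 10 was in 94.8% and 88.1% of ES cells, and in 51.2% and 50.9% at 500 UMIs. In fibroblasts, which have little *Tdh*, the share with a *Tdh* UMI at 500 UMIs was 1.54% and 1.957%.

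Feeder fibroblasts had lower levels of most of the genes. In the wild-type library 9 of the 10 were more than 2-fold lower in fibroblasts (48 cells, median 8131.5 UMIs), against 29.3% of all genes. In the knockout library 7 of the 10 were (23 cells, median 2295 UMIs), against 21.4% of all genes. Of these 7, *Gcat*, *Shmt1* and *Mthfd1* rest on 1 fibroblast UMI each and *Mthfd1l* on 4. Only the ratios of *Tdh* (up to 0.258) and *Mthfd1* (up to 0.257) stayed more than 2-fold lower over their whole interval. The interval of *Mthfd1l* (0.488, 0.133 to 1.26) held 1. For these counts a gene with 0 fibroblast UMIs was set at 3 UMIs, so one low in ES cells could then not be called lower. Such genes are part of the shares of all genes. The share among genes as abundant as the 10 was not counted. *Tdh* had 44.0 CPM (26.5 to 68.7) and 60.8 CPM (24.4 to 125), or 0.0946 and 0.125 of the ES cell level. Its 19 wild-type UMIs came from 4 cells, 10 of them from 1 cell, and its 7 knockout UMIs from 3 cells. Those cells had 2623 and 2103 CPM of ES cell markers, against 875 and 649 CPM in the other fibroblasts, and the part of droplets that held both cell types was not tested. Of these markers *Klf4* alone had 760 and 452 CPM over all fibroblasts, against 580 and 514 CPM in ES cells. *Gldc* had 0 UMIs in both fibroblast groups. With a limit set at 3 UMIs in all fibroblasts of the library, its ES cell level was 3.61 times that limit in the wild-type library. The exact interval of the ratio, which is wider, reached up to 0.343 of the ES cell level. In the knockout library the same limit was 26.1 CPM, too near the ES cell level for a difference to be detectable. *Phgdh* was the exception. It was higher in fibroblasts, at 132 CPM (100.02 to 171) in wild-type and 243 CPM (162 to 352) in knockout cells, 1.61 times (1.21 to 2.11) and 2.60 times (1.72 to 3.79) the ES cell level. *Mthfd2* in knockout fibroblasts was the remaining gene that was not more than 2-fold lower, at 0.514 of the ES cell level (0.246 to 0.947).

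ES cells were then compared by the share of their UMIs on 86 ribosomal protein genes, none of which is among the 10. Over all genes the median ratio of cells with a high share to the other ES cells was 0.8001 in wild-type and 0.744 in knockout cells, so a typical gene was lower in them. In ES cells with at least 15% ribosomal protein UMIs, 213 wild-type and 327 knockout cells, *Psat1* had 32.8 CPM (24.6 to 42.8) and 32.7 CPM (25.2 to 41.7). In the other ES cells it had 175 CPM (167 to 184) and 191 CPM (181 to 202), so it was at 0.187 (0.140 to 0.245) and 0.171 (0.131 to 0.219) of their level. *Gldc* stood at 0.304 and 0.252 of the level of the other cells (percentiles 15.2 and 13.96 of all genes), and *Mthfd1l* at 0.481 and 0.326 (29.4 and 20.5). In the same cells *Gcat* was higher, at 165 CPM (146 to 186) and 154 CPM (137 to 172) against 62.4 and 70.2 CPM, or 2.64-fold (2.28 to 3.06) and 2.19-fold (1.90 to 2.53). *Phgdh* was 1.91-fold and 1.73-fold, *Shmt2* 1.58-fold and 1.48-fold, and *Tdh* 1.36-fold and 1.33-fold the level of the others (percentiles 73.1 and 74.3). *Mthfd1* was at 1.22 and 1.13, *Shmt1* at 1.10 and 0.950, and *Mthfd2* at 0.947 (0.837 to 1.07) and 0.783 (0.685 to 0.893). *Phgdh* and *Psat1*, which act one after the other in serine synthesis, thus ran in opposite directions.

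**Figure D3:**
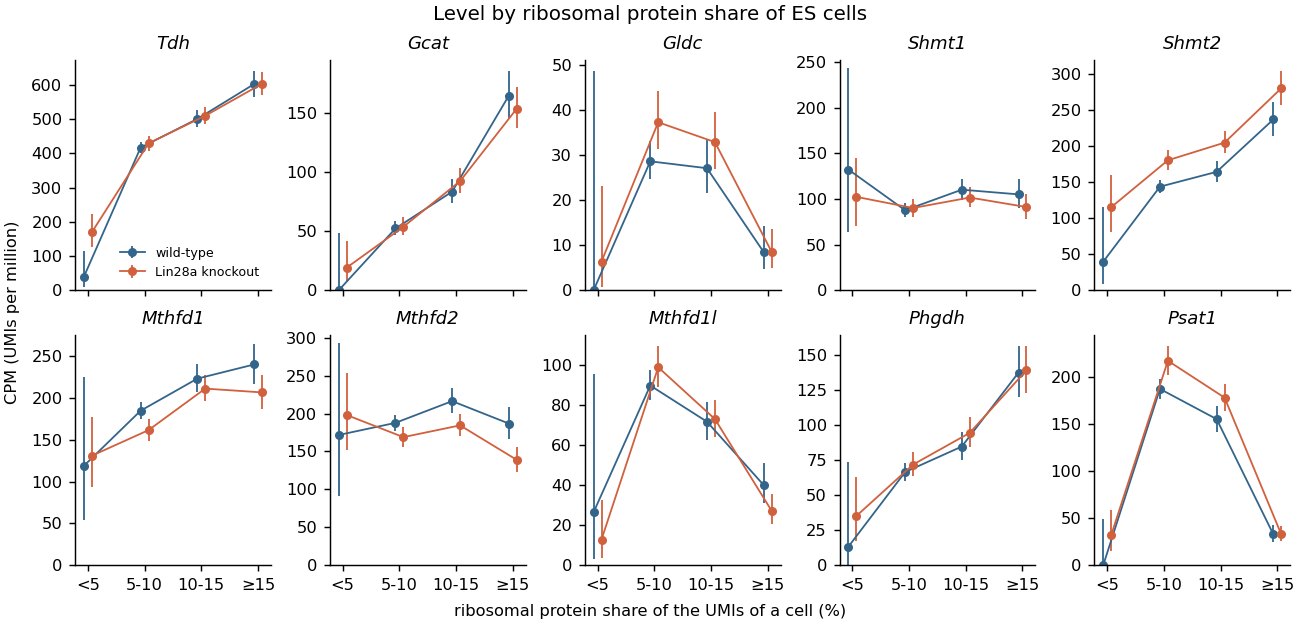
CPM of each gene in ES cells by the ribosomal protein share of the cell (under 5%, 5 to 10%, 10 to 15%, 15% and over), in the wild-type (blue) and Lin28a knockout (orange) library, with exact 95% Poisson intervals and an own linear axis from 0 for each gene. Psat1, Gldc and Mthfd1l peak at 5 to 10% and are low at 15% and over, while Gcat, Phgdh, Shmt2 and Tdh are highest there.

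These counts were read against all genes. In the cells with at least 15% ribosomal protein UMIs 3 of the 10 were more than 2-fold lower than in the other ES cells in each library, against 30.9% (wild-type) and 34.2% (knockout) of all genes. At least 1.5-fold higher were 3 of the 10 in wild-type (21.7% of all genes) and 2 of the 10 in knockout cells (19.1%). *Gcat* was at the 99.4th and 97.7th percentile of this ratio over all genes, and *Psat1* at the 6.72nd and 7.61st. The cells with at least 15% ribosomal protein UMIs had a median of 0.171% and 0.256% mitochondrial UMIs, against 1.68% and 2.46% in cells of 5 to 10%. Their ES cell markers were slightly higher (5504 and 5343 CPM against 4662 and 4786), and their median depth was 7469 and 5928 UMIs. Their summed fibroblast markers were lower (723 and 721 CPM against 1009 and 1037). Over all ES cells that sum was 958 and 941 CPM, mostly *Fn1* (389 and 378), *Sparc* (262 and 273) and *Vim* (260 and 235). It thus says little of feeder RNA in these cells. Among cells of 5000 to 10000 UMIs alone the *Psat1* ratio was 0.206 and 0.165 and the *Gcat* ratio 2.58 and 2.61. With ribosomal protein genes left out of the total they were 0.204 and 0.186, and 2.89 and 2.39.

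ES cells under 5% ribosomal protein UMIs were shallow. They were 83 wild-type cells (4.59% of ES cells) at a median of 789 UMIs and 224 knockout cells (14.0%) at 1214.5 UMIs. The 10 genes together had 542 CPM (389 to 735) and 821 CPM (724 to 928) there, 0.350 and 0.509 of the level of the other ES cells. *Tdh* had 39.6 CPM from 3 UMIs (8.18 to 116) and 169 CPM from 53 UMIs (127 to 222). Genes of the pathway did not all follow it. *Shmt1* stood at 132 CPM (63.4 to 243) and 102 CPM (70.0 to 144), and *Mthfd2* at 172 CPM (91.5 to 294) and 198 CPM (152 to 254), near their level in all ES cells. *Psat1* had 0 and 10 UMIs in these cells. The median mitochondrial share was 4.32% and 5.81% and the ES cell markers were at 2299 and 2924 CPM, and the part of barcode quality in these levels was not tested.

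Whether the genes went with the targeted gene inside 1 library was described in ES cells of at least 5000 UMIs. In the wild-type library 636 cells with a *Lin28a* UMI (median 7719 UMIs) were set beside 560 without (6997.5), and in the knockout library 200 (10745.5) beside 612 (8078). The 10 genes together were alike, at 0.981 (0.950 to 1.01) and 1.01 (0.969 to 1.05) of the level of cells without. *Gcat* was lower in cells with a *Lin28a* UMI, at 0.768 (0.665 to 0.887) and 0.744 (0.619 to 0.889). *Mthfd1l* was higher in them, at 1.37 (1.18 to 1.60) and 1.26 (1.05 to 1.5), and *Psat1* was at 1.05 (0.946 to 1.17) and 1.34 (1.19 to 1.5). *Gldc* was at 0.990 (0.763 to 1.29) and 1.42 (1.08 to 1.86) in them. In knockout cells alone the intervals also lay off 1 for *Mthfd1* at 0.864 (0.767 to 0.973), *Tdh* at 0.931 (0.866 to 0.999) and *Mthfd2* at 1.15 (1.02 to 1.29), and the libraries were not compared in this. *Lin28a* also fell with the ribosomal protein share, from 126 and 51.0 CPM at 5 to 10% to 53.4 and 14.6 CPM at 15% and over. In knockout ES cells of 10000 UMIs and over *Psat1* was at 1.59 and *Mthfd1l* at 1.41 of the level of the other ES cells. In wild-type cells of that depth they were at 0.986 and 1.09. The part of ribosomal protein share and of depth in these values was not tested.

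Sorted by the summed level of 12 DNA replication genes, the deep ES cells were cut into 3 groups of equal size, and the highest and lowest groups had nearly the same total of the 10, with ratios of 0.990 (0.951 to 1.03) and 1.02 (0.978 to 1.07). The groups had median depths of 7125 and 7130 UMIs among wild-type cells, but 7975 and 9105 among knockout cells, and the part of that gap was not tested. *Psat1* was higher in the highest group, at 1.16 (1.02 to 1.32) and 1.39 (1.21 to 1.60). *Gldc* was at 0.962 (0.703 to 1.32) and 1.47 (1.07 to 2.03), and *Shmt2* at 0.839 (0.742 to 0.949) and 0.932 (0.822 to 1.06). *Gcat* was lower in the wild-type library, at 0.783 (0.654 to 0.936), and its knockout value of 0.835 (0.689 to 1.01) was within counting error of 1.

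The spread from cell to cell was set beside the counting error. With each deep cell thinned to 5000 UMIs, *Tdh* had a mean of 2.33 UMIs in 1196 wild-type and 2.54 in 812 knockout cells, and the variance was 1.21 and 1.19 times the mean. No *Tdh* UMI was left in 12.2% and 11.1% of them, where a Poisson spread would leave 9.73% and 7.85%. The mean of *Gcat* was only 0.426 and 0.440 UMIs, yet its variance was 1.22 and 1.28 times the mean, and that of *Psat1* was 1.16 and 1.34 times a mean of 0.758 and 0.796 UMIs. *Shmt1* varied no more than counting error would give, with a variance of 1.04 and 0.996 times the mean. Over these cells the 45 pairs of genes had Pearson correlations of log values (at 10000 UMIs per cell) from -0.0970 to 0.104 among wild-type cells. Among knockout cells they ran from -0.172 to 0.205. The values are weak, but so few UMIs per gene and cell limit how high they can be. The cells share a library and differ in depth. *Gcat* and *Psat1* gave the lowest in both. A deep cell held UMIs of a median of 6 of the 10 genes in both libraries.

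Over 10 cell groups (fibroblasts and 4 ranges of ribosomal protein share in each library) the genes whose levels ran most like *Tdh* were *Stip1* (r = 0.997), *Lmnb2* (0.992) and *Mir692-2* (0.991), among 6281 genes. For *Shmt2* they were *Ahsa1* (0.991), *Hmces* (0.988) and *Zpr1* (0.988), and for *Mthfd2* they were *Tfcp2l1* (0.981), *Urb1* (0.979) and *Dnmt3b* (0.977). The groups share their libraries and were cut along 1 axis, so high values arise readily.

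Other genes of the connected pathways were counted in the same way. Of 56 genes for serine and glycine, glycine cleavage, the folate cycle, the methionine cycle and purine synthesis, 45 had at least 200 UMIs. Past 1.5-fold were 2 higher (6.87% of all genes) and 1 lower (7.88%), and their median ratio was 0.975. *Impdh1*, which makes the precursor of guanine nucleotides, had 14.1 and 29.5 CPM (ratio 2.09, 1.71 to 2.56), and *Cbs*, which leads homocysteine to cysteine, had 20.4 and 34.3 CPM (1.68, 1.41 to 2.00). *Mtap*, of the methionine salvage route, had 43.8 and 27.0 CPM (0.616, 0.527 to 0.719).

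**Figure D4:**
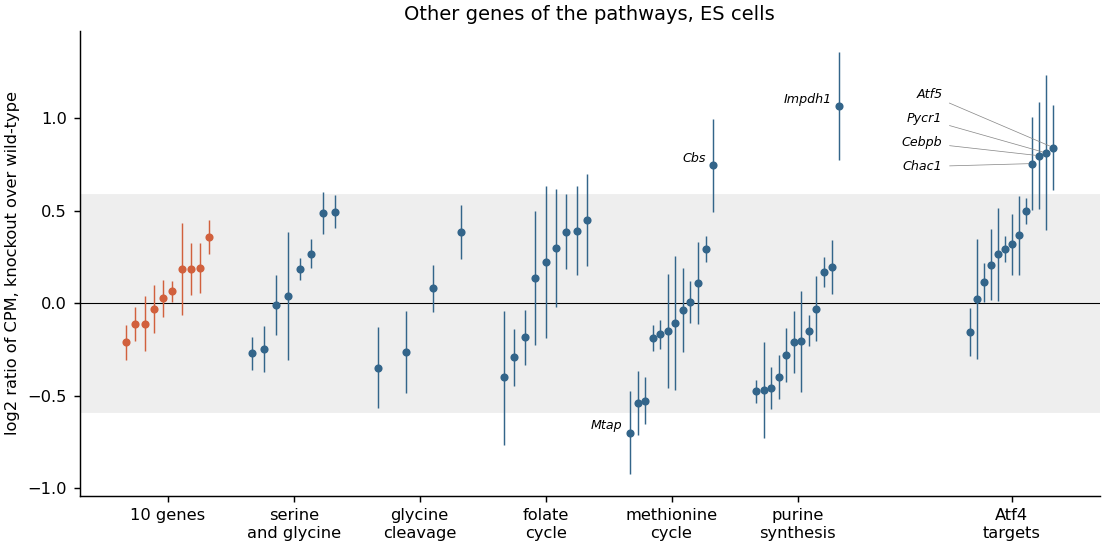
Log2 ratio of CPM (knockout over wild-type) in ES cells for the 10 genes (orange) and for the genes of 6 other lists with at least 200 UMIs (blue), with exact 95% intervals. The grey band marks less than 1.5-fold, and the genes outside it are named. Impdh1, Cbs and Mtap are outside it among the metabolic lists, and Atf5, Pycr1, Cebpb and Chac1 among the Atf4 targets.

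*Tyms*, which makes thymidylate, had 77.3 and 63.1 CPM (0.816, 0.734 to 0.908). In the methionine cycle *Mat2a*, which makes S-adenosylmethionine, had 352 and 309 CPM (0.878, 0.836 to 0.921), and *Ahcy* 122 and 122 CPM (1.0, 0.927 to 1.09). The 12 purine synthesis genes had a median ratio of 0.866, against 1.02 over all genes, and single ratios ran from 0.720 to the 2.09 of *Impdh1*. *Mthfd2l*, a relative of *Mthfd2*, was low, with 115 and 55 UMIs (10.3 and 5.96 CPM).

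ATF4 is a transcription factor of the amino acid response that is known to act on *Phgdh*, *Psat1*, *Shmt2* and *Mthfd2*. Of 14 genes listed as *Atf4* and its targets, 13 had at least 200 UMIs, 4 of them were at least 1.5-fold higher (6.87% of all genes) and 0 at least 1.5-fold lower (7.88%) in the knockout library, and the median ratio was 1.247, against 1.02 over all genes. Higher were *Atf5* (1.79, 1.53 to 2.10), *Pycr1* (1.76, 1.32 to 2.35), *Cebpb* (1.74, 1.43 to 2.12) and *Chac1* (1.69, 1.42 to 2.01). *Nupr1* went the other way, at 0.899 (0.822 to 0.982). The 4 genes known to respond to ATF4 among the 10 had ratios of 1.14, 1.02, 1.28 and 0.864, in the order first given. They are not among the 14, so that list is a selection of targets and its median describes its own genes only.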

How the data were processed

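Single-cell RNA-seq was analysed from 2 inDrop libraries. The files hold whole-number UMI counts for each gene and cell barcode, deposited by the authors after a published processing route for inDrop reads. Barcodes of low depth had not been removed. The submitters' processing notes name mm10 and Seurat 2.3.4, while the aligner and annotation are not given in the sources used here. Gene identifiers were named through GENCODE M21 (GRCm38), in which 54079 of 54146 rows matched without their version.

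The limits of 500 UMIs and a mitochondrial share of 0.2 follow the study's methods. Counts were summed over cells of a library. Where no UMI was seen, the limit was set at 3 UMIs. Shares at 500 UMIs come from the hypergeometric distribution. The 86 ribosomal protein genes are protein-coding, without genes named as pseudogenes. Doublets were kept in the main values and marked with Scrublet (32 wild-type and 18 knockout cells) as an alternative.

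The 10 genes, the pathway lists and the alternatives were chosen with earlier results of these data known. The comparison of cells with at least 15% ribosomal protein UMIs over all genes and the groups by replication genes were added after the files were read. Named are the 10 genes, pathway genes past 1.5-fold with at least 200 UMIs plus *Psph*, *Amt*, *Gcsh*, *Dld*, *Tyms*, *Mat2a*, *Ahcy* and *Mthfd2l*, the 3 most similar genes for *Tdh* and for the genes with the largest and smallest ratio (Pearson r of log2 of CPM plus 10, at least 500 UMIs), *Lin28a*, and *Atf4* targets past 1.5-fold. *Nupr1*, *Sox2*, *Zfp42*, *Pou5f1*, *Esrrb*, *Klf4*, *Fn1*, *Sparc* and *Vim* were named after their values were seen. Of the genes to be named, 1 is not reported here. The calculation of ratios was tested on simulated data with known folds. Ratios and intervals were computed with scipy 1.17.1 under Python 3.11.15, tables with pandas 2.3.3 and numpy 2.4.6, Scrublet through scanpy 1.11.5 and plots with matplotlib 3.10.9.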

Additional observations from a re-analysis of the deposited data

How the results depend on the processing

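Across 14 alternatives (other limits on UMIs, mitochondrial share and collagen share, other scaling, equal weight per cell, cells of 5000 to 10000 UMIs, cells with low or high ribosomal protein shares left out, cells of 10 to 15% alone, and no doublets) 0 of the 10 genes passed 1.5-fold between the libraries. At the lowest fold tried, just under the *Shmt2* ratio of 1.28, 1 gene passed (*Shmt2*), and at 2-fold 0. Of all genes 6.87% were at least 1.5-fold higher and 7.88% at least 1.5-fold lower in the main setting. Their share at the other folds and under the alternatives was not counted. The ratio of the 10 genes together was 1.01 to 1.05 under 13 of the 14 and reversed to 0.986 with median-of-ratios scaling. *Shmt2* stayed above 1 (1.23 to 1.33) and *Mthfd2* (0.827 to 0.911) and *Mthfd1* (0.885 to 0.953) below 1 under all 14. *Psat1* ran from 0.775 with equal weight per cell to 1.15 in cells of 10 to 15% ribosomal protein UMIs, and *Gldc* was 0.907 with equal weight per cell. *Tdh* ran from 1.001 with median-of-ratios scaling to 1.09 in cells of 5000 to 10000 UMIs. *Mthfd1l* ran from 0.836 in those cells to 1.02 in cells of 10 to 15% ribosomal protein UMIs. With collagen limits of 1% and 0.1% the number of genes more than 2-fold lower in fibroblasts was 8 and 9 for wild-type and 8 and 6 for knockout fibroblasts. These limits gave 31 and 67 wild-type and 16 and 48 knockout fibroblasts. The share of all genes was not counted at them. Among ES cells under 5000 UMIs alone *Psat1*, *Gcat*, *Shmt2* and *Phgdh* passed 1.5-fold in at least 1 range of depth. Some of these calls rest on few UMIs, such as 6 and 47 for *Phgdh* under 2000 UMIs. Among cells under 5% ribosomal protein UMIs *Tdh* was at 4.27 (1.38 to 21.4), from 3 and 53 UMIs. *Shmt2* (2.90, 0.917 to 14.7), *Phgdh* (2.66, 0.387 to 115) and *Mthfd1l* (0.484, 0.0693 to 5.35) were also past 1.5-fold there, with intervals that held 1. *Gcat*, *Gldc* and *Psat1* had 0 wild-type UMIs in those cells, which leaves their ratios without an upper limit. The share of all genes past 1.5-fold was not counted within these ranges. The alternatives that left out cells of 15% or more ribosomal protein UMIs or kept only those of 10 to 15% were chosen after seeing the data. No paired analysis was possible because each genotype has 1 library. Low counts limit what can be said of *Gldc* and of the fibroblasts.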
